A study of Homo sapiens with 12 samples.

Results

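The genes described here are 10 components and targets of transforming growth factor beta (TGF-beta) and bone morphogenetic protein (BMP) signalling: the ligands TGFB1 and TGFB2, the receptor TGFBR2, the pseudoreceptor BAMBI, the inhibitory SMAD proteins SMAD6 and SMAD7, the co-repressor SKIL, and the targets ID1, ID2 and ID3. They were looked up by symbol among the 30574 loci of the expression tables, and 9 of the 10 were found. No locus carried the name TGFB1, which was not analysed here. The genes were selected on pathway membership with the measured FPKM differences of BPA 2500 nM against DMSO already known, so their values in that comparison are a description and carry no test. Comparisons of the other exposures with DMSO use the same DMSO libraries, and comparisons of BPA 2500 nM with another exposure use the same BPA 2500 nM libraries. The p-values of the members in these comparisons are therefore not independent of that choice.

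Messenger RNA was sequenced from IOSE80 cells, an immortalized line derived from normal human ovarian epithelium, after 28 days of exposure. The groups were bisphenol A (BPA, a building block of polycarbonate plastics with weak oestrogen-like activity) at 0.25 nM (n = 3), BPA at 2500 nM (n = 3), E2 (the usual abbreviation of estradiol; its dose is not stated in the labels; n = 2, with a further E2 sample not analysed here) and the solvent 0.1% DMSO (n = 3). All groups are the same line, so every library shares its immortalized background, and the labels do not say whether replicates were separate cultures. A p-value here is therefore a statement about the variation among these libraries, and that variation may be technical.

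In this pathway a ligand dimer brings together type II and type I receptor kinases, which phosphorylate receptor SMADs: mainly SMAD2 and SMAD3 for TGF-beta, and SMAD1, SMAD5 and SMAD9 for BMPs. These join SMAD4, enter the nucleus and change transcription. ID1, ID2 and ID3 are classic BMP targets whose products bind basic helix-loop-helix (bHLH) factors and keep them off DNA, while SMAD6 and SMAD7 are induced by the signal and feed back to block it. Ovarian surface epithelium is known to respond to both branches, TGF-beta being a growth inhibitor of its cultured cells.

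Promoter windows are shown for ID1 and SMAD6, a target and a feedback inhibitor whose libraries did not overlap between BPA 2500 nM and DMSO, and whose windows lie almost wholly upstream of annotated exons. Each is the 250 bases before the RefSeq start (GRCh38.p14), both on the + strand: chr20:31605039-31605288 for ID1, of which 6 bases lie in a GENCODE 29 exon, and chr15:66701986-66702235 for SMAD6, of which 8 do. Capitals mark matches to 4 motifs searched on both strands.
ID1: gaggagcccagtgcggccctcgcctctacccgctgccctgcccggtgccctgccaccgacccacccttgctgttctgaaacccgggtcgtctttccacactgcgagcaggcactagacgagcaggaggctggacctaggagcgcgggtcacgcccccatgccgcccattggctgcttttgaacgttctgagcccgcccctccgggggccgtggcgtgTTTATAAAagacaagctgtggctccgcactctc
SMAD6: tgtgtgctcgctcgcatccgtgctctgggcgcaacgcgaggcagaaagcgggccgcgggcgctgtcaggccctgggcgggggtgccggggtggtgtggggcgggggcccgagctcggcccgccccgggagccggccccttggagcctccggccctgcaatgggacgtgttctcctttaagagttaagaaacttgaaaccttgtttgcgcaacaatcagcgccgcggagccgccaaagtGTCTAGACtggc
The motifs were the palindromic SMAD-binding element GTCTAGAC, the shorter SMAD-binding sequence CAGAC, the GC-rich element GGCGCC and the TATA element TATAAA. GTCTAGAC does not itself contain CAGAC. SMAD6 held GTCTAGAC 12 to 5 bases before its start, a motif present in 0.182% of the 35116 RefSeq promoter windows of the same length. ID1 held TATAAA on both strands at overlapping positions, 33 to 26 bases before its start, a motif found in 10.7% of windows. The ID3 window held CAGAC once, 147 to 143 bases before the start, as 38.0% of windows did at least once. ID2 had no match to any of the 4, and GGCGCC, present in 16.4% of windows, occurred in none of the ID1, ID2, ID3 and SMAD6 windows. Among the other members GGCGCC occurred for SKIL and BAMBI, CAGAC for SMAD7, TGFB2, SKIL and BAMBI, and TATAAA for SMAD7 and TGFB2. The ID2 and ID3 windows are not printed because 229 and 250 of their bases lie within annotated exons of longer transcripts. A match describes letters and is not evidence of binding, and a window without a match says nothing of sequence further upstream.

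Levels are given in fragments per kilobase of transcript, relative to the library's mapped fragments (FPKM). They are scaled by length, but how far this makes genes comparable here was not tested, so the order of members is approximate. Over the 11 libraries ID3 was the most abundant member (mean 241.9 FPKM), followed by ID1 (90.9) and ID2 (42.2). Each of these stood clear of the next, as the lowest ID3 value was 200.86, ID1 ranged between 74.46 and 108.27, and ID2 between 35.85 and 49.49 FPKM. SKIL (5.66), TGFBR2 (5.42) and SMAD6 (4.01) followed. SKIL, at 3.62 to 8.70 FPKM, overlapped both of the others, whereas TGFBR2 (4.91 to 5.74) and SMAD6 (3.33 to 4.64) did not overlap. SMAD7 averaged 0.973 FPKM, BAMBI 0.327 and TGFB2 0.005, and TGFB2 was listed at 0 in 8 of 11 libraries. A locus was tested where it reached 1 FPKM in at least 2 libraries, which 12182 loci and 7 members did. SMAD7 passed only through 3 libraries, 2 of BPA 2500 nM and 1 of E2, so it had to be higher there, and BAMBI and TGFB2 did not pass.

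**Figure D1:**
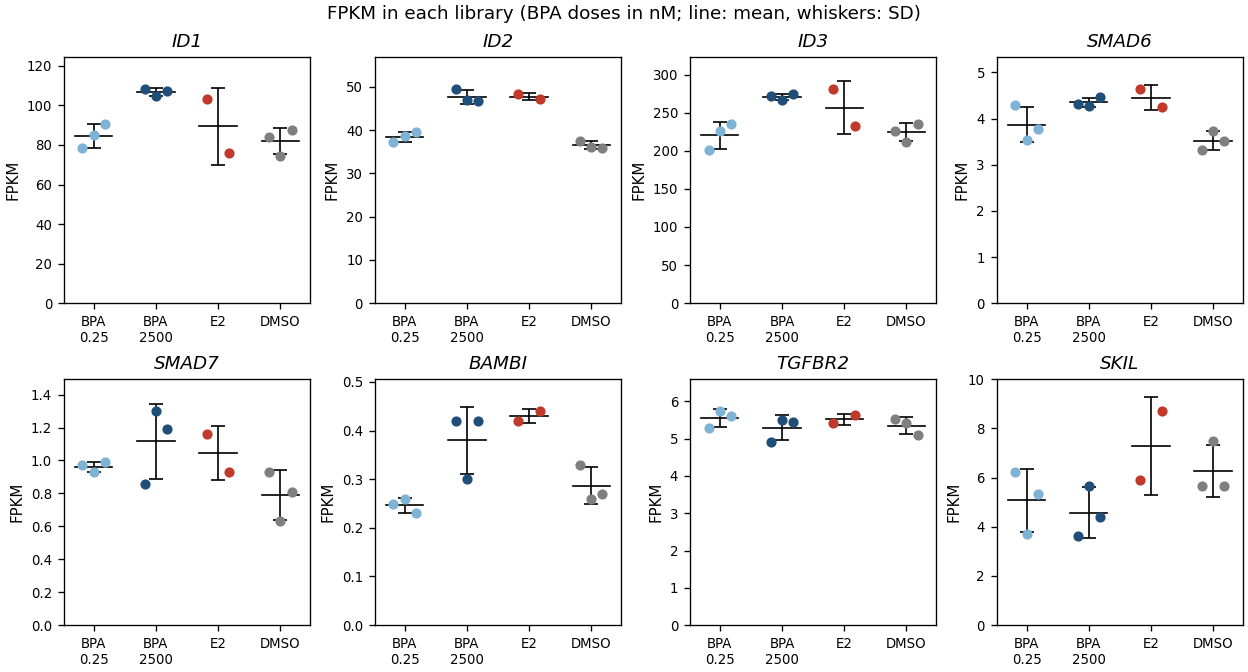
FPKM of the 8 members with a measurable level in each library; points are libraries, lines group means and whiskers SD (n = 3, and n = 2 for E2), with a linear axis from 0. ID2 separates BPA 2500 nM and E2 (46.67 to 49.49 FPKM) from BPA 0.25 nM and DMSO (35.85 to 39.57 FPKM), while TGFBR2 stays between 4.91 and 5.74 FPKM.

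Among the targets, ID2 gave the clearest separation. ID2 (chr2:8678845-8684453, + strand, GRCh38) encodes an inhibitor of bHLH factors that also restrains differentiation. It measured 37.28, 38.61 and 39.57 FPKM with BPA 0.25 nM, 49.49, 46.93 and 46.67 with BPA 2500 nM, 48.36 and 47.17 with E2, and 37.57, 36.17 and 35.85 with DMSO. All 5 libraries of BPA 2500 nM and E2 lay above all 6 of BPA 0.25 nM and DMSO. In bulk RNA more expressing cells and more RNA per cell cannot be told apart. On the log2(FPKM + 1) scale ID2 stood 0.38 ± 0.04 (SE) above DMSO with BPA 2500 nM, a description. With E2 ID2 was 0.38 ± 0.05 higher than with DMSO (limma, adjusted p = 0.0205), or 30.8% of the DMSO mean in FPKM, a comparison that shares its DMSO libraries with the one behind the choice of genes. The call was lost in several alternatives: the adjusted p was 0.0527, 0.0533 and 0.0602 on leaving out DMSO replicate 1, 2 or 3, 0.0561 on leaving out BPA 2500 nM replicate 2, and 0.248 with only E2 and DMSO in the fit. Over these and the other alternatives the change stayed between 0.36 and 0.40.

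At the low dose ID2 did not separate from DMSO. With BPA 0.25 nM ID2 was 0.07 ± 0.04 above DMSO (limma, adjusted p = 0.637), and the libraries overlapped. Set against BPA 0.25 nM directly, BPA 2500 nM was higher by 0.30 ± 0.04 (adjusted p = 0.0512) and E2 by 0.30 ± 0.05 (adjusted p = 0.0957, 95% interval 0.20 to 0.41). Neither passed the threshold, although the libraries did not overlap in either. The comparison of BPA 2500 nM with BPA 0.25 nM uses BPA 2500 nM libraries whose values were known when the genes were chosen. Its p-value is therefore not independent of that choice. The E2 against BPA 0.25 nM comparison shares no library with the one behind the choice of genes. Its SE, however, comes from the fit of all 11 libraries, which includes those behind the choice. Between E2 and BPA 2500 nM the difference in ID2 was 0.00 ± 0.05, with an interval of -0.10 to 0.11. The ID2 locus overlaps the antisense gene ID2-AS1, and no source used here states the strand of the libraries, so reads of the pair cannot be told apart.

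ID1 and ID3 shared the position of BPA 2500 nM but not that of E2. ID1 (chr20:31605283-31606515, + strand), a bHLH inhibitor tied to proliferation, measured 78.56, 85.05 and 90.64 FPKM with BPA 0.25 nM, 108.27, 104.78 and 107.51 with BPA 2500 nM, 103.23 and 75.76 with E2, and 83.81, 74.46 and 87.45 with DMSO. The BPA 2500 nM libraries were the highest 3 of the 11, while 1 E2 library lay above the DMSO range and the other inside it. ID3 (chr1:23557926-23559501, - strand) gave 200.86, 225.73 and 235.30 FPKM with BPA 0.25 nM, 271.57, 266.64 and 274.09 with BPA 2500 nM, 281.04 and 232.16 with E2, and 226.34, 212.07 and 235.11 with DMSO. Here 1 E2 library was the highest of all and the other lay inside the DMSO range.

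Log2 differences from DMSO for BPA 2500 nM were 0.38 ± 0.11 for ID1 and 0.27 ± 0.08 for ID3, both descriptive. For E2 they were 0.11 ± 0.12 for ID1 (limma, adjusted p = 0.712) and 0.19 ± 0.09 for ID3 (adjusted p = 0.357), and neither passed. The E2 value of ID1 depended on which library was kept: it was 0.33 without E2 replicate 2 and -0.11 without E2 replicate 1. ID1 was also 0.27 ± 0.12 lower with E2 than with BPA 2500 nM, where the libraries did not overlap and the adjusted p was 0.547. With BPA 0.25 nM the differences from DMSO were 0.05 ± 0.11 for ID1 and -0.03 ± 0.08 for ID3 (adjusted p = 0.927 and 0.953).

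The ratio of ID3 to ID1 varied less between libraries than that of ID1 to ID2. ID3 was 2.51 to 3.06 times ID1 across the 11 libraries, with 2.56 to 2.65 for BPA 0.25 nM, 2.51 to 2.55 for BPA 2500 nM, 2.72 to 3.06 for E2 and 2.69 to 2.85 for DMSO. ID1 over ID2 ran between 1.61 and 2.44. Both ID1 and ID3 had their lowest DMSO value in replicate 2 and their lower E2 value in replicate 2. These are also the 2 libraries with the smallest FPKM totals (206774 for DMSO replicate 2 and 206719 for E2 replicate 2, against 210156 to 213663 for the other 9) and the most loci above 0 (23696 and 22699). The part of this in the ID1 and ID3 values was not tested.

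The inhibitory SMADs differed in how well they could be measured. SMAD6 (chr15:66702236-66782849, + strand) preferentially blocks BMP receptors. It gave 4.29, 3.54 and 3.78 FPKM with BPA 0.25 nM, 4.32, 4.28 and 4.46 with BPA 2500 nM, 4.64 and 4.26 with E2, and 3.33, 3.73 and 3.51 with DMSO. The 5 libraries of BPA 2500 nM and E2 were above all 3 DMSO libraries, but BPA 0.25 nM replicate 1 reached them. SMAD6 stood 0.24 ± 0.07 above DMSO with BPA 2500 nM, 0.27 ± 0.07 with E2 (limma, adjusted p = 0.127) and 0.10 ± 0.07 with BPA 0.25 nM (adjusted p = 0.671). Against BPA 0.25 nM, E2 differed by 0.16 ± 0.07 (adjusted p = 0.400), so SMAD6 passed the threshold in none of these tests.

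SMAD7 (chr18:48919853-48952052, - strand), which blocks both branches, stayed near 1 FPKM. Its values were 0.97, 0.93 and 0.99 with BPA 0.25 nM, 0.86, 1.30 and 1.19 with BPA 2500 nM, 1.16 and 0.93 with E2, and 0.93, 0.63 and 0.81 with DMSO. The groups overlapped, and the differences from DMSO were 0.14 ± 0.10 for BPA 0.25 nM (limma, adjusted p = 0.731), 0.24 ± 0.10 for BPA 2500 nM and 0.19 ± 0.12 for E2 (adjusted p = 0.474). BAMBI (chr10:28677510-28682932, + strand), a receptor-like protein without a kinase domain that damps signalling, was below 0.5 FPKM throughout. It measured 0.25, 0.26 and 0.23 with BPA 0.25 nM, 0.42, 0.30 and 0.42 with BPA 2500 nM, 0.42 and 0.44 with E2, and 0.33, 0.26 and 0.27 with DMSO. Both E2 libraries lay above all DMSO and BPA 0.25 nM libraries, at a level too low for the test.

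The receptor and the co-repressor showed no separation. TGFBR2 (chr3:30606502-30694142, + strand), the kinase that binds TGF-beta ligands first, averaged 5.55 ± 0.24 FPKM with BPA 0.25 nM, 5.29 ± 0.33 with BPA 2500 nM, 5.52 ± 0.15 with E2 and 5.35 ± 0.23 with DMSO (SD). Its interval against DMSO was -0.08 to 0.17 on the log2 scale for BPA 0.25 nM and -0.10 to 0.18 for E2 (limma, adjusted p = 0.855 and 0.825), the narrowest among the members after ID2. SKIL (chr3:170357678-170396835, + strand) encodes SnoN, which represses SMAD-driven transcription. It had the largest SE of the 7 tested members, at 6.22, 3.69 and 5.32 FPKM with BPA 0.25 nM, 3.62, 5.67 and 4.40 with BPA 2500 nM, 5.88 and 8.70 with E2, and 5.64, 7.47 and 5.67 with DMSO. The differences from DMSO were -0.27 ± 0.20 for BPA 0.25 nM, -0.39 ± 0.20 for BPA 2500 nM and 0.18 ± 0.23 for E2, with adjusted p = 0.731 and 0.764 for BPA 0.25 nM and E2. Between E2 and BPA 2500 nM the SKIL libraries did not overlap, yet the difference of 0.57 ± 0.23 had an adjusted p of 0.547. The ligand TGFB2 (chr1:218345336-218444619, + strand) reached 0.02 FPKM at most.

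**Figure D2:**
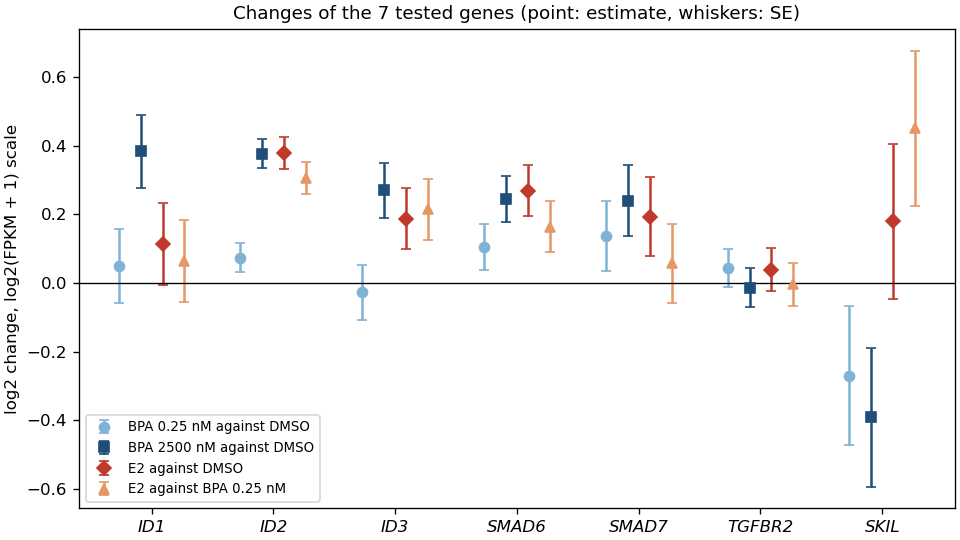
Log2 change of the 7 tested members on the log2(FPKM + 1) scale in 4 comparisons; points are limma estimates and whiskers SE. ID2 lies at 0.38 for both BPA 2500 nM and E2 against DMSO and at 0.30 for E2 against BPA 0.25 nM, while SKIL carries the widest errors; the BPA 2500 nM values were known when the genes were chosen.

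Counted over the 7 tested members, the comparisons differed as follows. With BPA 2500 nM against DMSO 1 member (ID2) was past the adjusted threshold of 0.05, beside 1.3% of all tested loci, and 4 (ID1, ID2, ID3 and SMAD6) had all libraries higher, beside 9.54%. The known choice of members fixes this, and nothing is read from it. With E2 against DMSO 1 member (ID2) was past the threshold, beside 0.419% of loci, and 2 (ID2 and SMAD6) had all libraries higher, beside 12.2%. These counts rest on the DMSO libraries that entered the choice of genes and are likewise a description. None passed with BPA 0.25 nM against DMSO, where 0.0164% of loci did and 0 members had a limma p under 0.05. No member had all libraries higher there, beside 9.01%.

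Between the exposures no member passed. BPA 2500 nM against BPA 0.25 nM called 0.0657% of loci. ID1, ID2 and ID3 were the 3 tested members with all libraries higher, beside 4.66% of loci. Each of the 3 had an unadjusted limma p under 0.05, as did 7.81% of loci. This comparison shares the BPA 2500 nM libraries with the one behind the choice of genes. E2 against BPA 0.25 nM called 0.0493%, with only ID2 higher in all libraries among the tested members, beside 10.8%, and 2 members (ID2 and ID3) at an unadjusted p under 0.05, beside 12.6% of loci. E2 against BPA 2500 nM called 0.041%, with SKIL higher in all libraries, beside 13.4%, and 2 members (ID1 and SKIL) at an unadjusted p under 0.05, beside 9.01% of loci. The median log2 change of the members against DMSO was 0.05 for BPA 0.25 nM, 0.24 for BPA 2500 nM and 0.19 for E2, where the medians of all tested loci were 0.00, -0.03 and -0.01. These 3 comparisons share the DMSO libraries, and the member medians rest on 7 genes that passed the filter. The genes were chosen with the BPA 2500 nM differences known. SMAD7 passed the filter only through libraries of BPA 2500 nM and E2, which favoured higher values there. The member medians are therefore a description, and nothing is read from them.

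The rest of the pathway was followed through 125 further genes in 8 lists by role. Of these, 7 had no locus of their name, 3 shared a locus with another protein-coding gene, 59 were too low and 56 were tested. Against DMSO none was called with BPA 0.25 nM, 1 rose (GATA2) and 1 fell (COL3A1) with BPA 2500 nM, and none was called with E2, where 0.0164%, 1.3% and 0.419% of all tested loci were called. For BPA 0.25 nM 7 of the 56 had an unadjusted limma p under 0.05, beside 9.11% of all tested loci. With BPA 2500 nM 17 of the 56 did, beside 17.2% of loci, and with E2 16 of the 56, beside 15.4% of loci. In each of these comparisons the share among the 56 was above that of all tested loci. The median log2 change of the 56 was -0.01, -0.07 and -0.02 in these 3 comparisons. The lists were drawn up with earlier results of these data known. The counts and p-values of their genes, here and below, are therefore not independent of that choice.

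**Figure D3:**
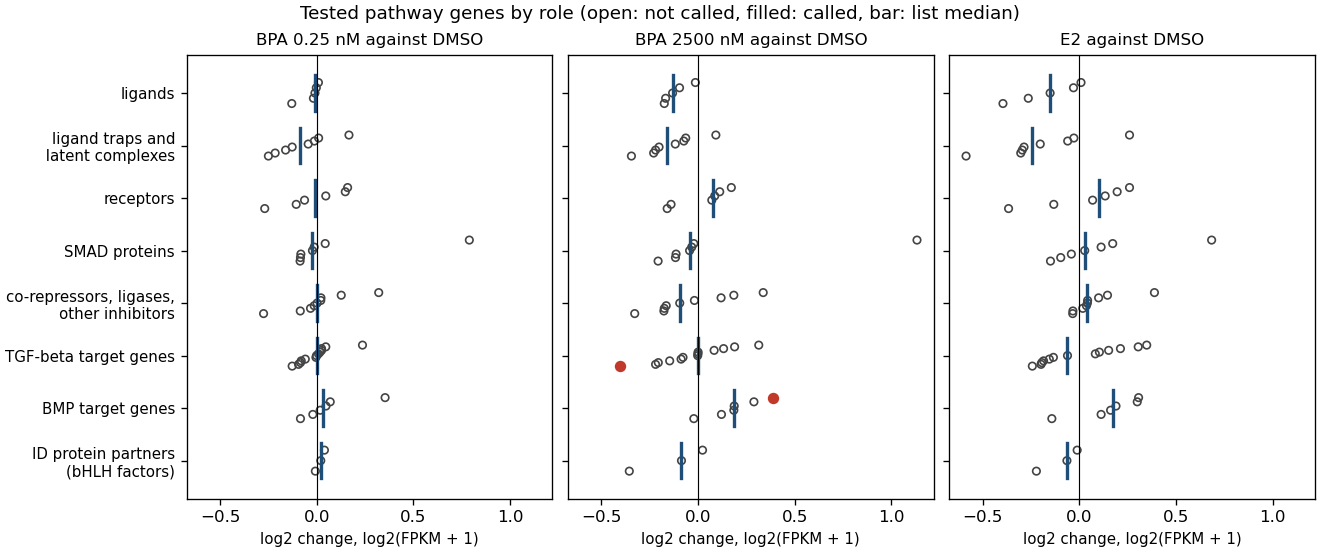
Log2 change against DMSO of the 56 tested pathway genes by role, 1 panel per exposure; open points were not called, filled points were called (limma, adjusted p under 0.05) and bars are list medians. The BMP target list has its median at 0.03 for BPA 0.25 nM, 0.19 for BPA 2500 nM and 0.18 for E2, and the 2 filled points are GATA2 and COL3A1.

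Among BMP targets other than the members, GATA2 alone passed the threshold, with BPA 2500 nM, in a list drawn up with earlier results known. Of 6 tested, 5 were positive with BPA 2500 nM and 5 with E2, with medians of 0.19 and 0.18, and 4 were positive with BPA 0.25 nM (median 0.03). Of all 12182 tested loci, 5209 were positive with BPA 2500 nM, 5859 with E2 and 6125 with BPA 0.25 nM. GATA2, a zinc-finger transcription factor of early development, averaged 15.3 ± 0.92 FPKM with BPA 0.25 nM, 19.3 ± 1.10 with BPA 2500 nM, 18.2 ± 1.04 with E2 and 14.5 ± 0.97 with DMSO (SD). With BPA 2500 nM GATA2 rose by 0.39 ± 0.07 (limma, adjusted p = 0.0336), and with E2 it was 0.31 ± 0.08 higher (adjusted p = 0.0951). Its call was lost in 7 of 11 fits that left out 1 library, with adjusted p up to 0.132: on leaving out DMSO replicate 1 or 2, BPA 0.25 nM replicate 1 or 2, or any library of BPA 2500 nM. It was also lost with no filter on low values (adjusted p = 0.0941) and with only BPA 2500 nM and DMSO in the fit (0.0828). ID4, the fourth ID gene, averaged 27.1 ± 1.65 FPKM for BPA 0.25 nM, 28.5 ± 0.47 for BPA 2500 nM, 30.0 ± 0.06 for E2 and 26.2 ± 0.97 for DMSO. Its difference from DMSO was 0.12 ± 0.05 with BPA 2500 nM and 0.19 ± 0.06 with E2 (adjusted p = 0.258 and 0.151). DLX2, a homeobox factor, was 0.18 ± 0.06 above DMSO with BPA 2500 nM (adjusted p = 0.189) and 0.16 ± 0.07 with E2 (adjusted p = 0.321).

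TGF-beta targets had no common direction. Of 13 tested, 5 were positive and 8 negative with BPA 2500 nM, and 6 were positive and 7 negative with E2. Over all tested loci 5209 were positive and 6972 negative with BPA 2500 nM, and 5859 and 6323 with E2. COL3A1, a fibrillar collagen chain, measured 31.8 ± 1.31 FPKM with BPA 0.25 nM, 23.4 ± 0.40 with BPA 2500 nM, 28.4 ± 1.27 with E2 and 31.3 ± 0.89 with DMSO. It fell by 0.41 ± 0.05 with BPA 2500 nM against DMSO (limma, adjusted p = 0.00591), a call that held in all 11 fits without 1 library. Against BPA 0.25 nM it fell by 0.43 ± 0.05 (adjusted p = 0.0267), a call lost without BPA 0.25 nM replicate 1 or 3 or BPA 2500 nM replicate 1 or 3 (adjusted p up to 0.124), and with only these 2 groups in the fit (0.0758). With E2 its difference from DMSO was -0.14 ± 0.05 (adjusted p = 0.252). CCN2, a matricellular protein, was 0.31 ± 0.07 above DMSO with BPA 2500 nM and 0.35 ± 0.08 with E2 (adjusted p = 0.0662 and 0.0781). The first of these passed without E2 replicate 1 (0.0455) or E2 replicate 2 (0.0456). TAGLN, a smooth-muscle actin-binding protein, was 0.24 ± 0.06 above DMSO with BPA 0.25 nM (adjusted p = 0.339). Its means were above DMSO with the other exposures too: 81.75 ± 1.16 FPKM with BPA 0.25 nM, 79.15 ± 5.73 with BPA 2500 nM, 74.4 ± 5.07 with E2 and 69.2 ± 1.43 with DMSO (SD).

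**Figure D4:**
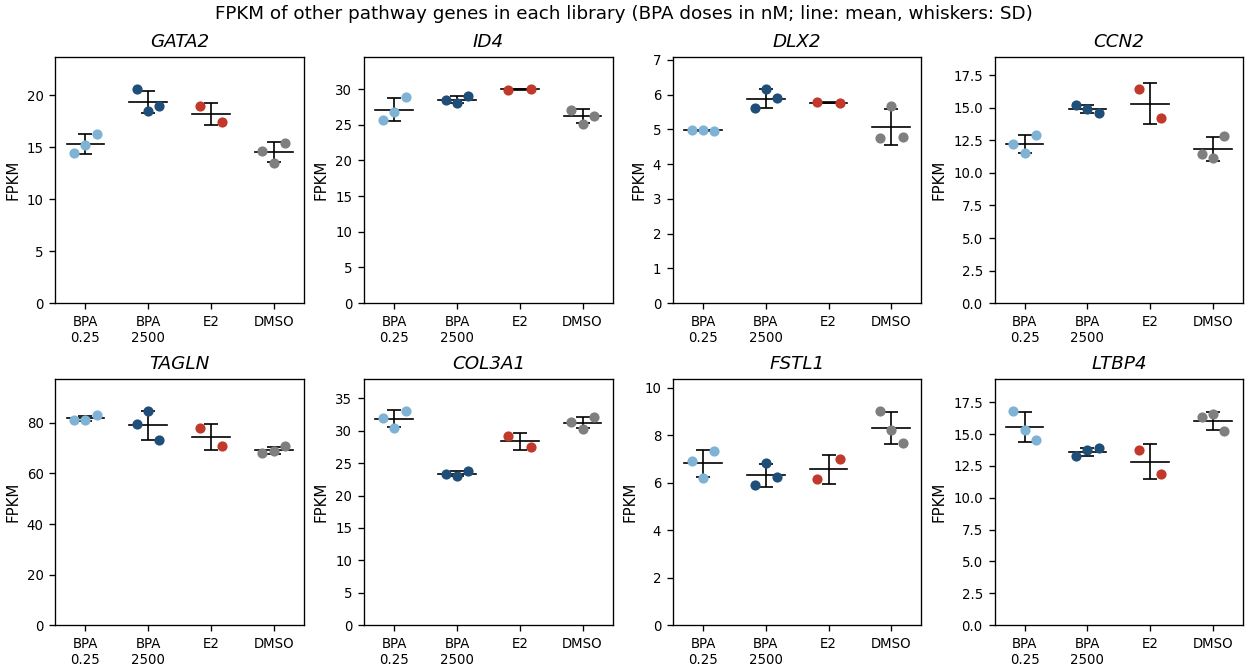
FPKM of 8 other pathway genes in each library; points are libraries, lines group means and whiskers SD (n = 3, and n = 2 for E2), with a linear axis from 0. GATA2 and CCN2 place BPA 2500 nM and E2 above DMSO, and COL3A1 places the BPA 2500 nM libraries (22.97 to 23.77 FPKM) below all others.

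Upstream of the targets few ligands could be tested. Of 22 ligand genes 13 were too low, 3 had no locus of their name (BMP2, GDF7 and INHBA) and 1 (LEFTY1) shared a locus. Genes without a locus of their own could not be assessed, and so their expression is unknown here, as is that of the member TGFB1. GDF11, a ligand of the activin branch, was the most abundant of the 5 tested, with 4.75 FPKM for BPA 0.25 nM, 4.73 for BPA 2500 nM, 4.81 for E2 and 4.78 for DMSO. GDF15 and INHA were 0.27 ± 0.10 and 0.40 ± 0.16 below DMSO with E2, and neither was called. GDF15 reached 1 FPKM only in DMSO replicate 3 and BPA 0.25 nM replicate 3, so for GDF15 the filter itself favoured values lower with E2. INHA reached 1 FPKM in every library except those of E2, so its passing did not depend on its E2 values. Among ligand traps and latent-complex proteins, 7 of 8 tested were negative with BPA 2500 nM (median -0.16) and 7 of 8 with E2 (median -0.24), none of them called. Negative changes were also the majority of the 12182 tested loci, with 6972 for BPA 2500 nM and 6323 for E2. FSTL1, a secreted glycoprotein that binds BMPs, averaged 6.81 ± 0.57 FPKM for BPA 0.25 nM, 6.31 ± 0.48 for BPA 2500 nM, 6.57 ± 0.61 for E2 and 8.29 ± 0.68 for DMSO. Libraries of each exposure lay below those of DMSO without overlap (limma, adjusted p = 0.45, 0.0757 and 0.169 in the same order). The share of all tested loci that lay lower in this way was not computed, so nothing is read from it. LTBP4, which tethers latent TGF-beta to the matrix, was 0.22 ± 0.07 below DMSO with BPA 2500 nM and 0.30 ± 0.08 with E2.

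Receptors, SMADs and inhibitors contained no call. ACVR1, a type I BMP receptor, averaged 6.79 ± 0.13 FPKM with BPA 0.25 nM, 6.54 ± 0.28 with BPA 2500 nM, 6.98 ± 0.38 with E2 and 5.97 ± 0.20 with DMSO. Libraries of each exposure lay above those of DMSO without overlap, as did those of 9.01%, 9.54% and 12.2% of all tested loci in the same order. SMAD5, a BMP receptor SMAD, measured 7.13, 2.25 and 6.63 FPKM with BPA 0.25 nM, 6.53, 6.69 and 6.10 with BPA 2500 nM, 6.38 and 3.02 with E2, and 1.70, 2.86 and 2.74 with DMSO. Its difference of 1.13 ± 0.35 with BPA 2500 nM was the largest in the list and did not pass (limma, adjusted p = 0.147), and within BPA 0.25 nM and E2 the libraries differed more than 2-fold. STRAP, which stabilises SMAD7 at the receptor, was 0.33 ± 0.07 below DMSO with BPA 2500 nM (adjusted p = 0.054; 0.0207 without BPA 0.25 nM replicate 3) and 0.15 ± 0.08 above it with E2 (adjusted p = 0.409). With BPA 0.25 nM the log2 change of STRAP from DMSO was -0.275, also without a call. Of the 13 bHLH partners of ID proteins looked for, 3 were tested, TCF3, TCF12 and TWIST2. TCF12 was 0.36 ± 0.16 below DMSO with BPA 2500 nM (adjusted p = 0.298).

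The genes with profiles nearest to ID2 were found by the root mean square difference of mean-centred log2(FPKM + 1) values over the 11 libraries, among 9467 tested loci that name 1 protein-coding gene. They were GATA2 (0.059), PLK2 (0.067), ODC1 (0.069), CCN1 (0.070) and SPRY2 (0.073), against a root mean square of 0.174 for the ID2 profile itself. ODC1, the first enzyme of polyamine synthesis, had 85.4 FPKM with BPA 0.25 nM, 97.8 with BPA 2500 nM, 95.7 with E2 and 73.8 with DMSO. Of the other tested members, ID3 ranked 42, SMAD6 62, SMAD7 458, ID1 537, TGFBR2 2693 and SKIL 8974. Among the nearest to SMAD6 (0.123 for its own profile) were MYBBP1A (0.049), TMEM87A (0.051), KCTD15 (0.055) and DHX34 (0.056), while the other tested members ranked between 517 (ID2) and 8880 (SKIL). All values come from the same libraries, so a small difference also reflects what the libraries share. The members were chosen with the differences of BPA 2500 nM from DMSO known, and these libraries enter the profiles. The ranks of the members are therefore a description, and nothing is read from them.

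**Figure D5:**
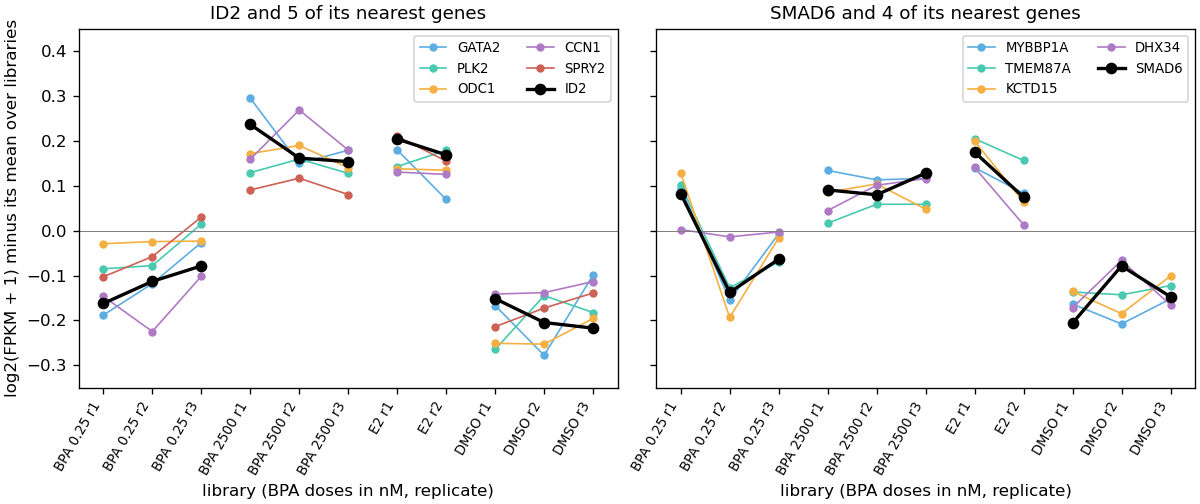
Mean-centred log2(FPKM + 1) of ID2 (left) and SMAD6 (right), in black, with 5 genes nearest to ID2 and 4 of those nearest to SMAD6 in colour, by library and in group order BPA 0.25 nM, BPA 2500 nM, E2 and DMSO. The ID2 set is above its mean in all 5 libraries of BPA 2500 nM and E2, and the SMAD6 set shares the high value of BPA 0.25 nM replicate 1 except DHX34, which is near 0 there.

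FPKM totals ran between 206719 and 213663, loci above 0 between 21223 and 23696, and each library's median correlation with the others between 0.9896 and 0.9917; read depth is unknown because no counts were used. Mitochondrial transcripts made up 12.62 to 12.66% of FPKM with BPA 0.25 nM, 12.94 to 13.62% with BPA 2500 nM, 12.26 to 14.0% with E2 and 13.63 to 14.31% with DMSO. Every DMSO library was thus above every BPA library, and the part of these transcripts in the member values was not tested. Of 11 ovarian surface and epithelial markers 2 averaged at least 1 FPKM, KRT18 and KRT8, while CDH1, the epithelial cadherin, was at 0.02 FPKM or less, so the labelled epithelial identity rests on few markers. Summed leukocyte and endothelial markers reached at most 0.08 and 0.01 FPKM. These sums cover only genes with a locus of their own, 4 of 6 leukocyte and 2 of 5 endothelial markers. The fibroblast sum covers 5 of 6 genes and the granulosa sum 4 of 5. Markers without such a locus could not be assessed, so the sums do not show that a cell type was absent. Summed fibroblast markers ran between 1.53 and 1.83 FPKM with BPA 0.25 nM, 1.20 and 1.52 with BPA 2500 nM, 1.52 and 1.55 with E2, and 1.17 and 1.88 with DMSO. Granulosa markers gave 8.27 to 9.44, 9.08 to 9.31, 6.89 to 8.56 and 8.34 to 10.31 FPKM in the same order, led by FOXL2.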

How the data were processed

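The authors deposited 1 table of FPKM per library, with 30574 loci; per the submitters' processing notes the tools were HISAT, UMI-tools, StringTie and edgeR and the build hg19, with no versions. Coordinates are those of the tables: 74.9% of the 14123 Ensembl loci also in GENCODE 29 (GRCh38) share its start and end, so GRCh38 is used here. FPKM is already scaled, and low values fell too weakly on multiples of 1 read for whole reads to be recovered (mean cosine 0.097 to 0.25, where 1 is exact), so depth is unknown and no count test was run.

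Values were analysed as log2(FPKM + 1) with limma 3.58.1 (R 4.3.3; trend and robust settings), 1 mean per group over 11 libraries, two-sided, 7 residual degrees of freedom, for loci of at least 1 FPKM in at least 2 libraries, with Benjamini-Hochberg adjustment over the 12182 tested loci within each of 6 comparisons; calls have an adjusted p under 0.05. Fold changes on this scale understate low genes. The members and gene lists were chosen with earlier results of these data known. Besides the members, the text names pathway genes that were called, those among the 2 smallest p-values of a role list in a comparison with DMSO or with its highest mean, and the 5 nearest profiles to ID2 and SMAD6; the text gives a selection of these, and 2 genes that this rule names are not reported here. A locus naming several protein-coding genes was left out. The fit was tested on simulated data. Alternatives were a pseudocount of 0.1, no filter, a mean FPKM of at least 5, only the groups compared, rescaling by the median of ratios, no trend, a replicate block and leaving out each library.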

Additional observations from a re-analysis of the deposited data

How the results depend on the processing

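Of the members, the number called with BPA 2500 nM against DMSO was 1, and 0 in a fit of those groups alone; without 1 library it was 1 to 2, ID1 being the second without E2 replicate 1 or 2. With E2 against DMSO it was 1, and 0 in a fit of those groups alone and, without 1 library, 0 to 1. With BPA 2500 nM against BPA 0.25 nM it was 0, and 1 (ID2) with a mean FPKM of at least 5 and after rescaling by the median of ratios (adjusted p = 0.0431 and 0.0498). The BPA 2500 nM values were known when ID2 was chosen, so these calls are a description. The other 3 comparisons of the members, and the pathway genes with BPA 0.25 nM against DMSO, had 0 calls in every alternative run. Pathway genes called with BPA 2500 nM against DMSO numbered 2, and 1 with no filter and in a fit of those groups alone; without 1 library they numbered 1 to 3, with 3 without BPA 0.25 nM replicate 3 (STRAP added) or without E2 replicate 1 or 2 (CCN2 added). With E2 against DMSO they numbered 0, and without 1 library 0 to 1, JUNB without E2 replicate 1. Directions changed without 1 library for ID1, whose log2 change ran between -0.017 and 0.102 with BPA 0.25 nM and between -0.108 and 0.333 with E2 against DMSO, and between -0.157 and 0.284 with E2 against BPA 0.25 nM. The same held for ID3 with BPA 0.25 nM against DMSO (-0.075 to 0.039), SKIL with E2 against DMSO (-0.068 to 0.428), TGFBR2 with BPA 2500 nM against DMSO (-0.043 to 0.030; 0.012 after rescaling) and ID2 with E2 against BPA 2500 nM (-0.015 to 0.029; -0.015 after rescaling). It held also for GDF15 (-0.064 to 0.042), TCF3 (0.000 to 0.067) and TWIST2 (-0.047 to 0.083) with BPA 0.25 nM against DMSO, and for TCF3 with E2 against DMSO (-0.179 to 0.049). The cause of these shifts was not tested.

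Replicate numbers did not pair the samples: deviations of same-numbered libraries correlated with a median r of -0.006 (-0.117 to 0.164), over 0.1 in 1 of 15 pairs. With the replicate number as a block, the members called with E2 against DMSO were 0 (ID2 adjusted p = 0.105), the pathway genes called with BPA 2500 nM against DMSO were 1 (GATA2 adjusted p = 0.0643), and the ID2 difference of E2 from BPA 2500 nM was 0.0. Depth is unknown, so low members such as BAMBI and TGFB2 limit what can be compared.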
